A study of Microtus ochrogaster with 51 samples.

Results

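ENSMOCG00000010003 and ENSMOCG00000018254 are 2 of the 23038 gene IDs measured by bulk RNA sequencing in nucleus accumbens tissue of the prairie vole, Microtus ochrogaster. They were chosen on measured values. Both had lower mean levels in separated voles than in pairs housed together for 2 weeks, in each sex, and their levels moved together from library to library. That treatment difference and their correlation with each other are therefore given as descriptions. Whether a fit over all genes called the members is stated only to show dependence on the processing, and is no test of them. Neither deposited table pairs the IDs with gene names, and 0 of the IDs matched the 26397 genes of the RefSeq table of the species (assembly MicOch1.0). No name, function, position or sequence of a gene is therefore given, and the tissue label was not checked against cell type markers.

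This ventral striatal region receives dopamine input and takes part in reward and motivation. Prairie voles form lasting bonds between mates, and signalling by oxytocin, vasopressin, dopamine and opioids in this region is known to take part in forming and keeping such bonds. Loss of the partner is used in this species as a model of social loss.

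Every vole was housed with a mate of the opposite sex, and no unpaired animals were included. The 2-week pairs were sampled after 2 weeks of cohabitation. By the treatment label and the design text, the separated voles had 2 weeks of cohabitation followed by 4 weeks apart, while the treatment protocol speaks only of separation at 2 weeks followed by sampling, with no time apart. The 6-week pairs stayed together for 6 weeks. Labels give the sex, a pair number shared by both partners and 1 of 4 cohorts, but no age or strain. Cohorts 1 and 2 held only 2-week pairs, and cohorts 3 and 4 only the separated voles and the 6-week pairs, so treatment and cohort cannot be told apart between 2-week and separated voles. Each library is 1 animal.

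The first table holds normalized counts, which are reads on a gene divided by a size factor of the library. It covers 9 females and 9 males of 2-week pairs and 12 females and 12 males that were separated, which make 21 complete pairs. The second holds TPM, a gene's share of the library's transcripts after correction for transcript length, for 51 libraries: 10 females and 10 males of 2-week pairs, 12 females and 13 males that were separated, and 3 females and 3 males of 6-week pairs. The 42 libraries of the first table held 20067514 to 37737711 reads on genes (median 27487240), and the 11 most abundant IDs took 12.8% to 40.0% of a library. The first principal component of all genes took 33.6% of the variance between libraries. Both genes passed the filter on low values (at least 10 normalized counts on average), as did 14151 genes in all.

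In the table of normalized counts, which holds no 6-week pairs, both genes were higher in the 2-week females than in the separated females. The normalized counts of ENSMOCG00000010003 in 2-week females ran from 1500 in pair 9 through a median of 3151 to 7100 in pair 12 (mean 4088 ± 2096, SD, n = 9). In separated females they ran from 318 in pair 20 through a median of 904 to 1736 in pair 28 (mean 934 ± 467, SD, n = 12). The groups overlapped only at their edges: 10 of 12 separated females lay below every 2-week female, and 7 of 9 2-week females lay above every separated female. The mean was 4.38 times as high in the 2-week females. Of the 14151 genes tested with limma, 266 (1.88%) were called lower and 199 (1.41%) higher after separation at an adjusted p of 0.05 with sexes averaged. These genes were chosen from that comparison, so nothing is read from their place in it.

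ENSMOCG00000018254 gave the same picture in females at a lower count. Its 2-week females ran from 419 in pair 9 through a median of 1208 to 2356 in pair 13 (mean 1305 ± 645, SD, n = 9). Its separated females ran from 69.8 in pair 31 through a median of 273 to 519 in pair 25 (mean 304 ± 152, SD, n = 12). Here 9 of 12 separated females lay below every 2-week female, 7 of 9 2-week females lay above every separated female, and the ratio of the means was 4.29.

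In males the groups overlapped far more. The counts of ENSMOCG00000010003 in the 2-week males were 760 in pair 16, 955 in pair 14, 1049 in pair 9, 1474 in pair 10, 1750 in pair 8, 1799 in pair 12, 2182 in pair 2, 3091 in pair 13 and 9613 in pair 11. The male of pair 11 was thus 3.11 times as high as the next male, and it had the highest value of all 42 libraries. Separated males ran from 658 in pair 17 through a median of 1076 to 2567 in pair 30 (mean 1147 ± 482, SD, n = 12). Only 1 of 12 separated males lay below every 2-week male, and 2 of 9 2-week males lay above every separated male. The mean of the 2-week males was 2519 ± 2754 (SD, n = 9) with the male of pair 11 and 1632 ± 761 (SD, n = 8) without it.

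For ENSMOCG00000018254 the 2-week males ran from 320 in pair 9 through a median of 654 to 2837 in pair 11 (mean 793 ± 780, SD, n = 9, and 538 ± 158, SD, n = 8, without pair 11). Separated males ran from 222 in pair 28 through a median of 345 to 939 in pair 30 (mean 398 ± 198, SD, n = 12). Of the separated males 5 of 12 lay below every 2-week male, while 1 of 9 2-week males, that of pair 11, lay above every separated male.

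**Figure D1:**
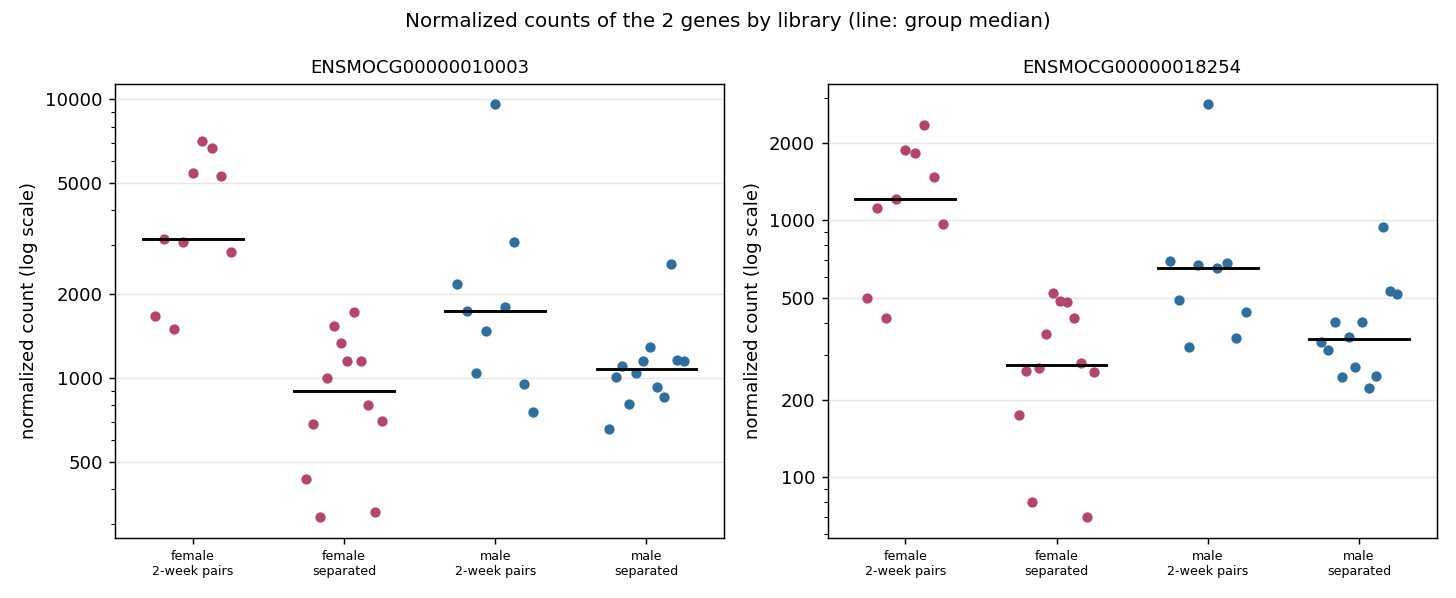
Normalized counts (log scale) of each gene in the 42 libraries, by sex and treatment; each point is 1 vole and each line a group median. Most 2-week females sit above all separated females for both genes, while the male groups overlap widely, with the 2-week male of pair 11 far above the rest (9613 for ENSMOCG00000010003).

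As fitted differences on the log2 scale, the separated minus 2-week difference of ENSMOCG00000010003 was -2.13 ± 0.344 in females and -0.76 ± 0.344 in males (SE, limma). That of ENSMOCG00000018254 was -2.14 ± 0.354 in females and -0.77 ± 0.354 in males (SE). Without the male of pair 11 the male values were -0.46 ± 0.311 and -0.50 ± 0.331 (SE), smaller than with that animal. With the sexes averaged the differences were -1.44 ± 0.243 and -1.45 ± 0.250 (SE). Fitted with the pair as a replicate block, where partners may resemble each other, they were the same in size with larger errors (0.296 and 0.318, SE). That fit called 8 genes (6 lower and 2 higher) instead of 465, with ENSMOCG00000010003 among the 8 and ENSMOCG00000018254 not. In tissue sampled in bulk, fewer cells of a type and less RNA per cell cannot be told apart.

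Across the 4 groups, both genes had the same order of medians: 2-week females, 2-week males, separated males and separated females. Neighbours in that order overlapped. Of the 2-week males, 4 of 9 for ENSMOCG00000010003 and 2 of 9 for ENSMOCG00000018254 lay below every 2-week female, and no 2-week female lay above the male of pair 11. Among separated voles no male lay below every female, and no female lay above every male.

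The sexes were compared within each treatment, a contrast that the choice of the genes did not use, although the large difference in females was known. In 2-week pairs the male minus female difference was -0.97 ± 0.367 for ENSMOCG00000010003 (log2, SE; limma p = 0.0119, adjusted p = 0.99988) and -0.87 ± 0.378 for ENSMOCG00000018254 (p = 0.0263, adjusted p = 0.99988). In separated voles it was 0.41 ± 0.318 (limma p = 0.205, adjusted p = 0.99995) and 0.50 ± 0.327 (p = 0.138, adjusted p = 0.99995). None of these passed the adjustment over all genes, and only 3 of 14151 genes (0.0212%) did so in the 2-week pairs and 3 (0.0212%) in the separated voles. This fit treats partners as independent. With the pair as a block the 2-week SEs were 0.295 and 0.316 (limma p = 0.00208 and 0.00859, adjusted p = 0.625 and 0.967). The separated SEs were 0.255 and 0.273 (limma p = 0.116 and 0.0773, adjusted p = 0.99985). Without the male of pair 11 the 2-week differences were -1.27 ± 0.331 and -1.14 ± 0.353 (SE; limma p = 0.000448 and 0.00238, adjusted p = 0.99999). The change with separation was smaller in males than in females by 1.38 ± 0.486 for ENSMOCG00000010003 and by 1.37 ± 0.50 for ENSMOCG00000018254 (log2, SE). This contrast is built from the treatment differences that chose the genes, so it is a description and no test of them. The fit over all genes called 1 gene in it (0.00707%), which was neither of them. Within cohorts, the 2-week difference of ENSMOCG00000010003 was -0.23 in the 2 pairs of cohort 1 and -1.18 in the 7 of cohort 2, and the separated difference was 0.42 in cohort 3 and 0.40 in cohort 4.

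Partners gave the same contrast pair by pair. In 2-week pairs the female had the higher ENSMOCG00000010003 count in 7 of 9 pairs, with a median female to male ratio of 2.08 and a range from 0.566 in pair 11 to 5.57 in pair 14. After separation the female was higher in 5 of 12 pairs, with a median ratio of 0.785 and a range from 0.284 in pair 31 to 1.86 in pair 28. For ENSMOCG00000018254 the female was higher in 7 of 9 2-week pairs (median ratio 2.20) and in 6 of 12 separated pairs (median ratio 0.925).

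Both genes varied widely among voles of 1 group. The SD of log2 values of ENSMOCG00000010003 was 0.825 in 2-week females, 1.10 in 2-week males, 0.831 in separated females and 0.478 in separated males. It was above that of 91.9%, 98.2%, 94.1% and 78.4% of the 10964 genes averaging at least 100 normalized counts in the same groups. For ENSMOCG00000018254 the SDs were 0.849, 0.924, 0.954 and 0.590, and the shares were 92.4%, 96.2%, 96.4% and 87.0%. Without the male of pair 11 the shares in 2-week males were 89.5% for ENSMOCG00000010003 and 74.3% for ENSMOCG00000018254.

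In the 2-week females this spread moved with the make-up of the library. ENSMOCG00000010003 was lower in libraries with more reads (Pearson r = -0.89, Spearman rho = -0.92, n = 9; exact permutation adjusted p = 0.00443 and 0.0315, and r = -0.81 without the 2 libraries farthest from the median read total). It was also lower in libraries with a higher score on the first principal component (r = -0.98, rho = -0.88, n = 9; exact permutation adjusted p = 0.00377 and 0.0369, and r = -0.96 without the 2 farthest libraries). For ENSMOCG00000018254 the values were r = -0.90 and rho = -0.85 with the read total (exact permutation adjusted p = 0.00503 and 0.0486) and r = -0.94 and rho = -0.83 with the component (exact permutation adjusted p = 0.00384 and 0.0496). Leaving out the 2 farthest libraries gave -0.85 and -0.86. Within cohort 2 alone (7 females) the correlations were -0.93 and -0.91 with the read total and -0.99 and -0.94 with the component.

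The 2-week males showed no such relation: their correlations of both genes with the read total, the share of the 11 most abundant IDs and the component lay between -0.31 and 0.04. In separated females ENSMOCG00000010003 had r = 0.71 and rho = 0.69 with the share of the 11 most abundant IDs and r = -0.72 and rho = -0.72 with the component (permutation adjusted p = 0.0405 for each r and 0.0617 and 0.0503 for the rhos, n = 12). Without the 2 farthest libraries these r were 0.61 and -0.77, and within cohort 4 they were 0.49 and -0.82. ENSMOCG00000018254 had 0.58 and -0.59 there (permutation adjusted p = 0.142 for each), and no relation passed in separated males. These are part of 24 relations adjusted together. The part of library make-up in the treatment difference was not tested. A term for it was added to the fit, chosen after the values were seen. That term has a single slope for all groups, while the relation differed between groups, so the fit does not measure that part. With the component as a covariate the female differences were -2.28 ± 0.293 for ENSMOCG00000010003 and -2.25 ± 0.327 for ENSMOCG00000018254 (log2, SE). With the read total they were -2.24 ± 0.320 and -2.21 ± 0.344 (log2, SE).

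The genes rose and fell together across voles, which is part of why they were put together. The Pearson correlation of their log2 values was 0.956 across the 18 2-week libraries (Spearman 0.938) and 0.911 across the 24 separated libraries (Spearman 0.864). Without the male of pair 11 the first was 0.945, and without the 2 farthest libraries the values were 0.960 and 0.831. Within groups r was 0.970 in 2-week females, 0.933 in 2-week males, 0.939 in separated females and 0.801 in separated males, and without pair 11 the 2-week males gave 0.779. Within cohorts r was 0.958 in cohort 2, 0.876 in cohort 3 and 0.930 in cohort 4, while cohort 1 had only 4 libraries. With the first principal component removed r was 0.937 in 2-week and 0.938 in separated libraries, so the likeness was about as large without that shared axis.

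The median of their ratio was similar in every group, while single libraries spread around it by more than the counting of reads alone gives. ENSMOCG00000010003 had a median of 2.94 normalized counts for each count of ENSMOCG00000018254 in 2-week females, 3.13 in 2-week males, 2.82 in separated females and 3.09 in separated males. Single libraries ranged from 1.73 in the 2-week male of pair 16 to 4.73 in the separated female of pair 31. The SD of the log2 ratio was 0.206, 0.406, 0.339 and 0.354 in the same groups, beside 0.0505, 0.0721, 0.115 and 0.0909 for the counting of reads alone. The mean log2 ratio differed between separated and 2-week voles by 0.0071 in females and 0.015 in males. This is a description with no test, since the choice of the genes by similar changes favours a small difference here. Per transcript length, ENSMOCG00000010003 was also listed above ENSMOCG00000018254, with a median TPM ratio of 1.68 in 2-week females, 1.55 in 2-week males, 1.48 in separated females and 1.70 in separated males. Of the 51 libraries, only the 2-week males of pairs 15 (0.846) and 16 (0.908) had a ratio below 1.

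The level of ENSMOCG00000018254 cannot be told apart from that of another ID. ENSMOCG00000016063 held 26922 reads over the 42 libraries against 26927 for ENSMOCG00000018254, and the counts of the pair differed by at most 53 reads in a library. Their counts were within 5% of each other in 35 of 42 libraries and equal in 2. A chi-square of their difference summed over libraries was 12.1 for 42 libraries, less than independent counting noise gives. Their TPM ratio had a median of 1.0 (0.837 to 1.20 over 51 libraries), and both had the same effective length. Of the 10964 genes with a mean of at least 100, 2 pairs of genes, this one included, had a chi-square per library under 1, and ENSMOCG00000010003 was in neither. Reads that match a pair of near-identical copies can be split between them by the authors' counting, so the level of ENSMOCG00000018254 is uncertain, and ENSMOCG00000016063 is no independent evidence of it. Summed, the pair changed by -2.13 in females and -0.75 in males with separation (log2, chosen after the values were seen). Against their summed TPM, ENSMOCG00000010003 was no longer the higher: the median ratio was 0.844 in 2-week females, 0.776 in 2-week males, 0.742 in separated females and 0.822 in separated males.

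**Figure D2:**
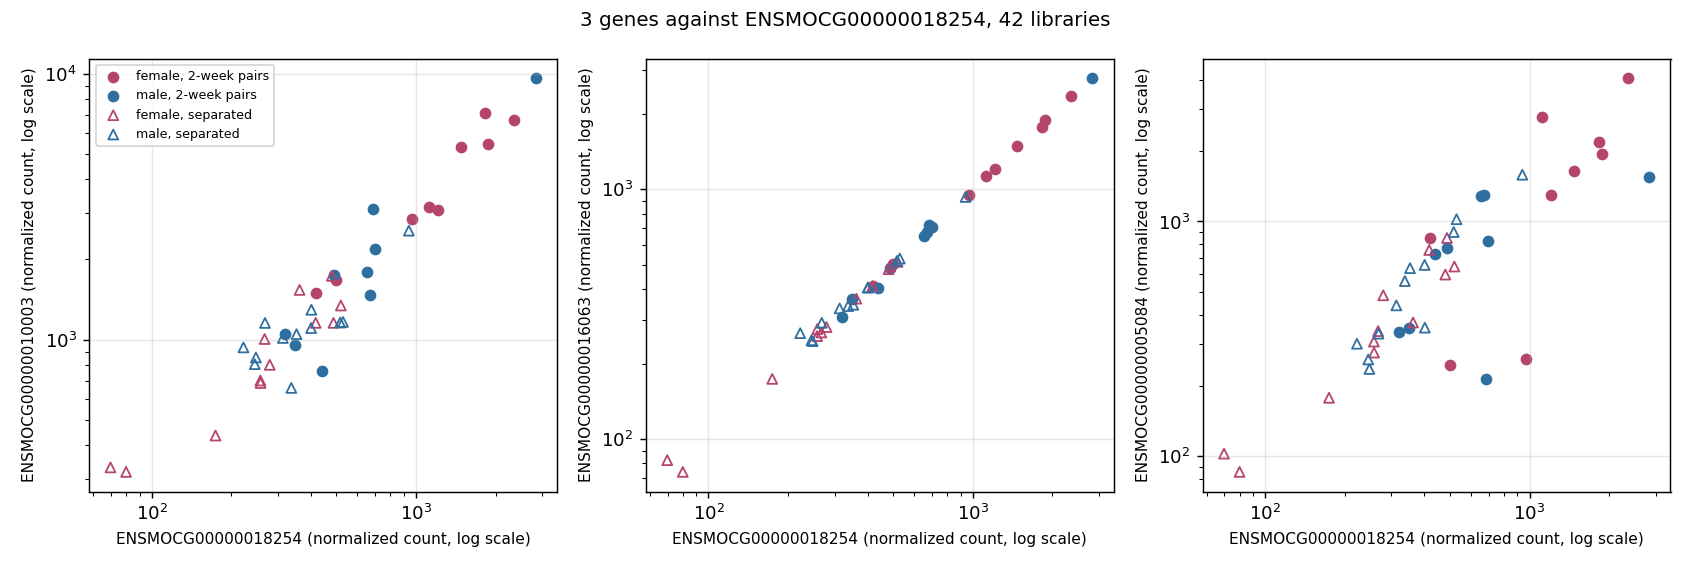
Normalized counts (log scales) of ENSMOCG00000010003, ENSMOCG00000016063 and ENSMOCG00000005084 against ENSMOCG00000018254 in the 42 libraries; circles are 2-week voles, triangles separated voles, red females and blue males. ENSMOCG00000016063 lies on a line with ENSMOCG00000018254, ENSMOCG00000010003 follows with a wider scatter, and ENSMOCG00000005084 follows in separated voles but lies far below in some 2-week voles.

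The 2-week male of pair 11 lay far above the other males of its group in both genes. Its ENSMOCG00000010003 count was 5.96 times the median of the other 8 males of its group, the second largest such ratio among 10964 genes. For ENSMOCG00000018254 the ratio was 4.96, the fifth largest, and 4.06 times the next male. In this male 10 of the 10964 genes were at least 4 times the median of the others, a number inside the range of the other males (3 to 195 genes). At least 2-fold above that median were 70 genes, and at least 2-fold below it 185. Its read total of 28093447 was the fifth of 9, its share of the 11 most abundant IDs was 23.5% (18.9% to 35.4% in the group), and its component score was the sixth. Its library thus did not stand apart in these measures. The ratio between the genes in this male was 3.39, inside the range of the other males, and its female partner had 5444 and 1878 normalized counts, above the median of her group.

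Partner likeness was measured as the correlation across pairs of the female's and the male's log2 value, each centred on the mean of the same cohort and sex. In the 9 2-week pairs it was 0.455 for ENSMOCG00000010003 (two-sided exact permutation p = 0.293 over 10080 reassignments of males within cohorts, adjusted p = 0.538 over all genes; Spearman 0.567, and 0.437 without the 2 farthest pairs). For ENSMOCG00000018254 it was 0.460 (exact permutation p = 0.236, adjusted p = 0.473; Spearman 0.383). Neither passed, and both lay close to the median of all genes, 0.415. In these pairs 3590 of 14150 genes (25.4%) had a positive correlation with an unadjusted exact p under 0.05.

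In the 12 separated pairs the partner correlations were negative for both genes while most genes kept a positive one. ENSMOCG00000010003 had -0.13 (exact permutation p = 0.680 over 604800 reassignments, adjusted p = 0.796; Spearman -0.22), and 10.5% of genes lay below it. ENSMOCG00000018254 had -0.51 (exact permutation p = 0.132, adjusted p = 0.261; Spearman -0.62), and 1.17% of genes lay below it. Neither passed. The median of all genes was 0.469, and 5433 of 14150 genes (38.4%) had a positive correlation with an unadjusted exact p under 0.05. Partners lay on the same side of their cohort's mean for ENSMOCG00000018254 in 2 of 12 pairs. With the first principal component removed, the partner correlation of ENSMOCG00000010003 was -0.53 in the separated pairs (exact permutation p = 0.0616, adjusted p = 0.751) and 0.087 in the 2-week pairs (exact permutation p = 0.840), and that of ENSMOCG00000018254 in 2-week pairs was 0.135. In TPM the values were 0.284 and 0.319 in 10 2-week pairs and -0.48 and -0.57 in the separated pairs. In cohort 2 alone the 2-week values were 0.503 and 0.557, and in cohort 4 alone the separated values were -0.25 and -0.53. The difference in partner likeness between treatments was not tested.

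**Figure D3:**
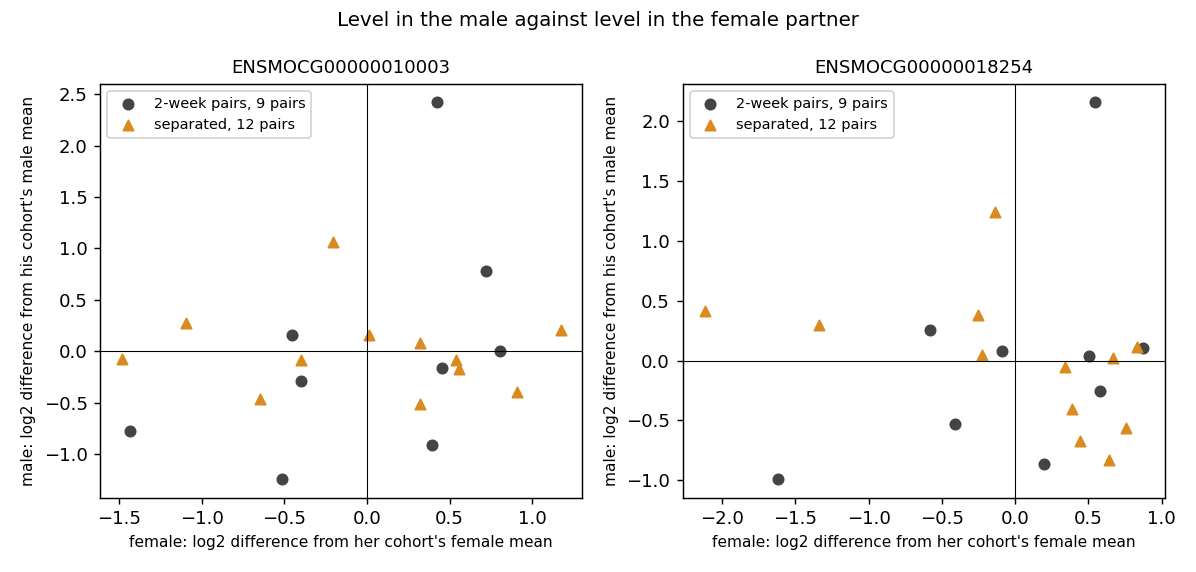
Log2 level of each gene in the male partner against that in the female partner, each as the difference from the mean of the same cohort and sex; circles are the 9 2-week pairs and triangles the 12 separated pairs. For ENSMOCG00000018254 most separated pairs lie in the quadrants where the partners deviate in opposite directions (r = -0.51).

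The 6-week pairs, present in the TPM table only, are described without a test. ENSMOCG00000010003 had 394, 392 and 83.4 TPM in the females of pairs 18, 22 and 27, and 99.7, 101 and 82.9 TPM in their male partners. The females of pairs 18 and 22 lay above all 12 separated females (35.8 to 157 TPM, median 79.9) and inside the range of the 10 2-week females (156 to 849 TPM, median 348). The female of pair 27 lay inside the separated range and below every 2-week female. All 3 males lay inside the range of the 13 separated males (62.0 to 190 TPM, median 98.7). Of the 10 2-week males (74.8 to 980 TPM, median 180), 8 lay above all 3 of them.

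ENSMOCG00000018254 divided the same animals in the same way. It had 305, 263 and 57.2 TPM in the females of pairs 18, 22 and 27 and 75.6, 45.2 and 52.8 TPM in the males. The separated females had 16 to 86.1 TPM (median 50.4), the 2-week females 82.2 to 422 (median 229), the separated males 35.8 to 132 (median 60.9) and the 2-week males 52.5 to 555 (median 109). The 6-week and separated voles come from cohorts 3 and 4, so this comparison does not cross cohorts as the other does. Pairs 18 and 22 were in cohort 3 and pair 27 in cohort 4, so the low female is also the only one of her cohort.

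**Figure D4:**
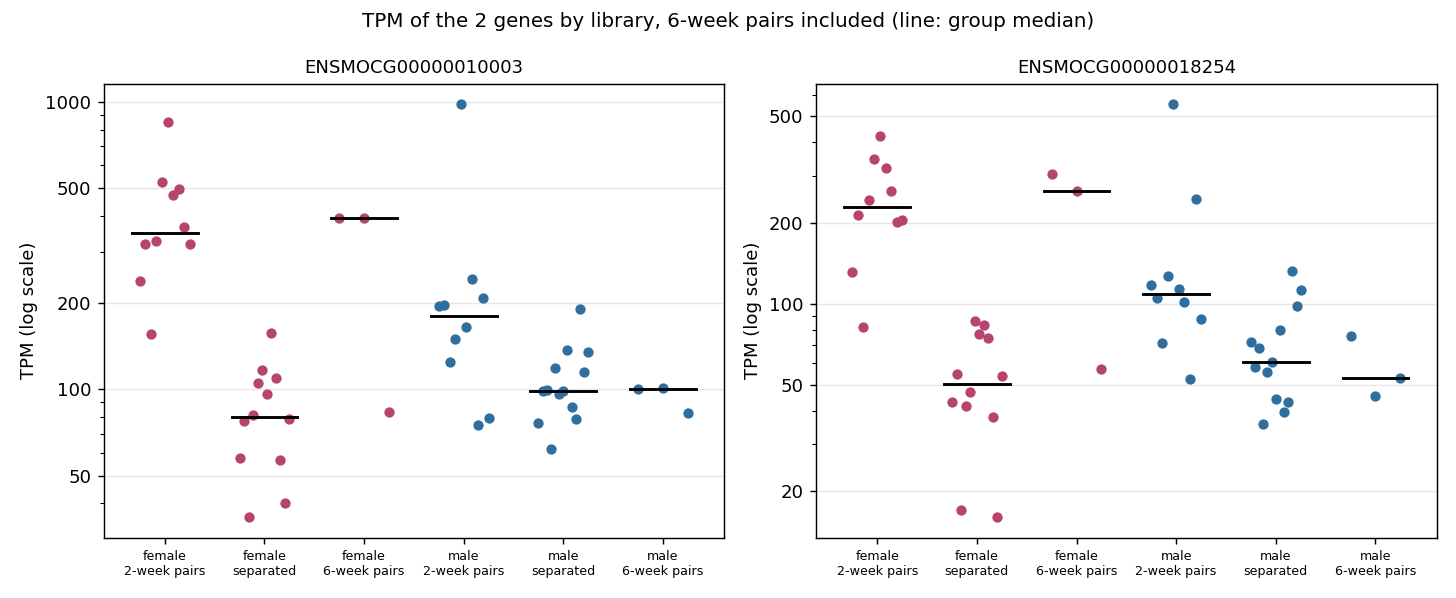
TPM (log scale) of each gene in all 51 libraries by sex and treatment; each point is 1 vole and each line a group median. In the 6-week pairs 2 females sit among the 2-week females and 1 among the separated females, and all 3 males sit among the separated males.

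The genes most like both members were sought separately in the 18 2-week and the 24 separated libraries, by the lower of the 2 Pearson correlations. Libraries share depth and make-up, so these are descriptions. In 2-week libraries 1058 of 14149 other genes (7.48%) reached 0.5 with both members, against 106 (0.749%) in separated libraries. At 0.8, 3 genes were left in the 2-week libraries and 2 in the separated libraries. The sets differ in size, and r spreads more widely over fewer libraries, so these counts do not measure a difference between treatments. ENSMOCG00000016063, whose counts cannot be told apart from those of ENSMOCG00000018254, came first in both sets, with 0.960 and 0.999 in the 2-week libraries and 0.920 and 0.995 in the separated libraries.

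ENSMOCG00000021931 came second in the 2-week libraries (r = 0.915 with ENSMOCG00000010003 and 0.890 with ENSMOCG00000018254), at a much lower count. Its normalized counts in 2-week females ran from 22.2 in pair 2 through a median of 70.3 to 112 in pair 13. In 2-week males they ran from 7.32 in pair 16 through 17.7 to 143, again in pair 11. In separated females they ran from 0.850 through 7.61 to 23.9, and in separated males from 0 reads in pair 28 through 5.62 to 27.2. It was lower after separation (log2 difference -2.52 ± 0.358, SE; limma adjusted p = 9.58e-05, and 0.00942 with the pair as a block), by 3.06 in females and 1.97 in males, with 11 of 12 separated females below every 2-week female and 8 of 12 separated males below every 2-week male. These are the libraries that chose the members it resembles. In separated libraries, where its counts were near 0, it came 125th (r = 0.487 and 0.521). Its 6-week TPM divided as those of the members did: 2.08, 1.65 and 0.0479 in females and 0.232, 0.182 and 0.0468 in males of pairs 18, 22 and 27.

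ENSMOCG00000005084 came second in the separated libraries (r = 0.823 and 0.949) and 359th in the 2-week libraries (r = 0.576 and 0.692). Its counts were 1694 ± 1232 (SD, n = 9) in 2-week females, 819 ± 475 (SD, n = 9) in 2-week males, 416 ± 251 (SD, n = 12) in separated females and 606 ± 397 (SD, n = 12) in separated males. It was lower after separation (log2 difference -1.13 ± 0.325, SE; adjusted p = 0.0424 in limma), with -1.84 in females and -0.41 in males. This call was lost with the pair as a replicate block (limma adjusted p = 0.311), with no filter on low values (0.0572) and without the 2-week male of pair 11 (0.0702). The call was kept in TPM (limma adjusted p = 0.0250) and with a pseudocount of 8 (0.0411). With covariates for the read total (0.0185) and the component (0.0141) and in edgeR (adjusted p = 0.0131) it was also kept. Its partner correlation in separated pairs was -0.61 (exact permutation p = 0.0451, adjusted p = 0.120), and 0.382% of genes lay below it. Its 6-week TPM were 201, 152 and 31.4 in females and 53.5, 22.1 and 49.9 in males.

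Of the 50 highest in the 2-week libraries (each at least 0.672), 3 were also among the 50 highest of the separated libraries (each at least 0.540), which is 6% of each list, where each list holds 0.353% of all genes. Each list also changed with the setting in the same libraries, so the overlap says little about treatment. They were ENSMOCG00000016063, ENSMOCG00000015991 and ENSMOCG00000015136, the last named after its values were seen. ENSMOCG00000015991, with a mean of only 10.2 normalized counts, had r of 0.818 and 0.860 in 2-week and 0.589 and 0.563 in separated libraries. Of each list 41 of 50 correlated positively with both members in the other treatment. Over all 14149 genes a smaller share did so, 6098 in the separated and 6740 in the 2-week libraries. Of the 50 genes of each list 2 (4%) were called lower after separation, against 1.88% of all genes: ENSMOCG00000016063, which cannot be told apart from a member, in both, with ENSMOCG00000021931 in the 2-week list and ENSMOCG00000005084 in the separated list. The median log2 difference was 0.035 and 0.016 in the lists and -0.0022 over all genes, so the lists as a whole were not lower after separation. This covers only the lists as drawn here, since other settings gave other genes.

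At the other end, ENSMOCG00000019270 (r = -0.82 and -0.80) and ENSMOCG00000002215 (r = -0.80 and -0.79) were the most opposed in 2-week libraries. ENSMOCG00000006527 (r = -0.81 and -0.73) and ENSMOCG00000001697 (r = -0.67 and -0.66) were the most opposed in separated libraries. None of these 4 was called between treatments (limma adjusted p between 0.702 and 0.891), and 0 of the 50 most opposed genes were shared between the sets.

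**Figure D5:**
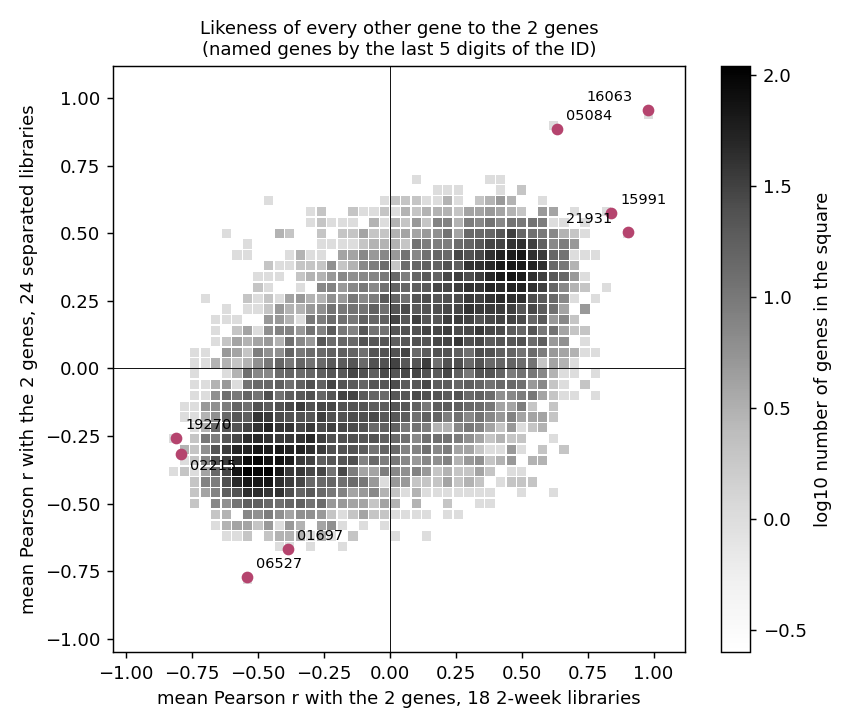
Mean Pearson correlation of each of 14149 genes with both members in the 18 2-week libraries (x) and the 24 separated libraries (y); grey squares count genes on a log10 scale and red points are the named genes, by the last 5 digits of the ID. ENSMOCG00000016063 and ENSMOCG00000005084 lie above all other genes in the separated libraries, and ENSMOCG00000016063 and ENSMOCG00000021931 have the highest values in the 2-week libraries.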

How the data were processed

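The authors deposited a table of signal values for 42 libraries, which are read counts divided by a size factor (per the submitters' processing notes, made with DESeq2 and DESeq), and a table of TPM for 51 libraries. For the aligner, counter and annotation: not given in the sources used here. All values of the first table (100.0%) were whole multiples of 1 step per library within 0.01 read, and reads were recovered from them. For the 2-week females of pairs 9 and 15 the labels and the columns disagree on which is in that table, and the columns were followed.

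Comparisons used limma 3.58.1 (R 4.3.3; trend, robust) on log2(normalized count + 1) for genes with a mean of at least 10, with group means and Benjamini-Hochberg adjustment over all genes. Alternatives were edgeR 4.0.16 on recovered reads, log2(TPM + 0.5), a pseudocount of 8, no filter, the pair as a block and, added after the values were seen, covariates for library make-up. Fold changes on this scale understate those of low genes. Partner correlations were tested exactly for every gene, reassigning males within cohorts. Partners share a pair number in the labels, and the consensus partner correlation over genes was 0.396, so the pairing is by design. Genes were named by rank: with IDs only, the 2 highest and 2 lowest by likeness in each set, and up to 2 shared by both lists of 50. The scripts were tested on simulated data. The members and lists were chosen with earlier results of these data known.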

Additional observations from a re-analysis of the deposited data

Results flagged for a closer look

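Single values were compared with the rest of their group by the gap to the nearest value as a share of the range (Dixon's ratio), in 44 groups of 9 or 10 voles, for the members, the 8 named genes and the ratio of the members. All 44 were 2-week groups. The separated groups (12 or 13 voles) and the 6-week groups (3 voles) were not screened. Among separated males, that of pair 30 had 2567 normalized counts of ENSMOCG00000010003 beside 1294 in the next male. For ENSMOCG00000018254 he had 939 beside 529. In 11 of the 44 groups the gap was beyond the 95% limit. That limit flags about 1 in 20 groups by chance only where values are normally distributed. Levels were taken here without a log, a scale on which high values spread more, so the number of flags cannot be set against that rate. The groups are not independent, since both tables hold the same voles and the genes were picked for their likeness. In the 2-week male of pair 11 the gap was 0.737 (normalized counts) and 0.816 (TPM) for ENSMOCG00000010003. It was 0.85 and 0.616 for ENSMOCG00000018254, 0.835 and 0.612 for ENSMOCG00000016063, and 0.738 and 0.793 for ENSMOCG00000021931. For ENSMOCG00000015991 it was 0.79 in normalized counts. In TPM the 2-week female of pair 12 was also flagged, with 0.466 for ENSMOCG00000010003, hardly beyond the limit, and 0.503 for ENSMOCG00000015991. In normalized counts of ENSMOCG00000010003 she had 7100 beside 6689 in the female of pair 13, and was not flagged. ENSMOCG00000005084 was not beyond the limit in any group, although the male of pair 11 held the highest normalized count of its group (1546).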

How the results depend on the processing

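Of 285 alternatives, 249 kept the direction and the side of the threshold of a tested result or stayed near the value of an untested one. Some could not change in size: the block leaves each difference as it is, and leaving out a male leaves the female differences. Results that did not pass count as kept even where they shrank. The 2-week partner correlation of ENSMOCG00000010003 went from 0.455 to 0.087 with the first principal component removed. Between separated and 2-week voles 465 genes were called. A replicate block by pair number left 8, log2(TPM + 0.5) gave 39, a covariate for the read total 727, one for the first principal component 1250, and edgeR on the recovered reads 491 (199 higher and 292 lower). Under the block the difference of ENSMOCG00000018254 with sexes averaged was still -1.45, but it was not among the genes called, nor was ENSMOCG00000016063. No other call of the members changed. Uncalled differences of 2 opposed genes changed sign, ENSMOCG00000002215 to 0.014 with the component as a covariate and ENSMOCG00000001697 to -0.032 in TPM, and the cause was not tested. Genes called between the sexes were 3 in each treatment. They were 5 in 2-week pairs with no filter and 1 in each treatment with TPM. For the difference in change between the sexes, 1 gene was called, 2 with no filter and 0 with TPM (148 at an unadjusted p of 0.05; 1 with edgeR). The log2 ratio of the members differed between treatments in females by 0.0071 in normalized counts and by -0.0060 in TPM, on both sides of 0, and the cause was not tested. Of the 50 genes most like the members in 2-week libraries, the number found again was 29 with Spearman correlation, 16 after centring on cohort and sex, 16 after removing the first principal component, 21 without the male of pair 11 and 19 in TPM. For the 50 most opposed it was 21, 20, 17, 20 and 20, and 30 among genes with a mean of at least 100. In separated libraries it was 19 (Spearman), 26 (centred), 23 (component removed) and 23 (TPM) for the most like, and 15, 29, 17 and 7 for the most opposed. ENSMOCG00000016063 came first and ENSMOCG00000005084 second in their set under every such setting. The other named genes held less well: in TPM ENSMOCG00000021931, ENSMOCG00000019270, ENSMOCG00000006527 and ENSMOCG00000001697 were not among the 50, and without the male of pair 11 ENSMOCG00000002215 was 25th. ENSMOCG00000021931 was below the filter at a mean of 100. Without each 6-week vole in turn, the mean TPM of ENSMOCG00000010003 was 238 to 393 in females and 91.3 to 100.3 in males, and that of ENSMOCG00000018254 was 160.0 to 284 and 49.0 to 64.2. Depth limits ENSMOCG00000021931, which had few reads after separation. It also limits ENSMOCG00000015991, which had few in every group (mean normalized counts from 6.32 in separated females to 14.1 in separated males).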

Other observations

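ENSMOCG00000005084 and ENSMOCG00000010003 had nearly the same effective length relative to ENSMOCG00000018254 (1.894 and 1.898, medians over the libraries of both tables). Their TPM were set against that gene in all 51 libraries, a look chosen after the values were seen. The ratio of ENSMOCG00000005084 to ENSMOCG00000018254 had a median of 0.653. In 4 of the 20 2-week voles it was between 0.143 and 0.285: the females of pairs 2 (0.264) and 16 (0.143) and the males of pairs 11 (0.285) and 13 (0.164). The fifth lowest of all 51 was 0.469, in a separated male, so these 4 stood below every other library. The high male of pair 11 was thus low in ENSMOCG00000005084 relative to ENSMOCG00000018254. The SD of the log2 TPM ratio of ENSMOCG00000010003 to ENSMOCG00000018254 over 51 libraries was 0.339. With only ENSMOCG00000016063 added to the second, it was 0.333. With ENSMOCG00000005084 added to the first and ENSMOCG00000016063 to the second, it was 0.224. By group it went from 0.470 to 0.226 in 2-week males, from 0.337 to 0.227 in separated females and from 0.350 to 0.201 in separated males, but from 0.198 to 0.256 in 2-week females. No test was made of these values. ENSMOCG00000005084 was picked for its likeness to the members in separated libraries, which favours a smaller spread there.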
